A study of Mus musculus with 172 samples.

Results

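Inner cell mass (ICM) cells of late mouse blastocysts that lack OCT4 were set against epiblast cells of the same age. The comparison takes the 19 cells labelled MUT at embryonic day (E) 4.5, from 2 embryos, and the 37 cells labelled EPI at E4.5, from 6 embryos. These are 56 of the 172 cells of the series and 56 of its 85 cells at E4.5. They were chosen by label alone. MUT embryos carry no functional Oct4 allele, and the EPI cells come from WT embryos (15 cells, 2 embryos) and HET embryos with 1 mutant allele (22 cells, 4 embryos). All were offspring of HET parents of mixed background, collected after natural mating. The trophectoderm (TE) was stripped off by immunosurgery before the ICM was dissociated, and single cells were profiled with Smart-seq2. The authors split WT and HET cells into EPI and primitive endoderm (PrE, 29 cells) from these same transcriptomes, whereas MUT cells carry no lineage label. The MUT cells are therefore a sample of the whole ICM and the EPI cells a selected part of it, so values of the PrE cells of the same 6 embryos are given beside the results as a description.

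OCT4, the product of Pou5f1, is a POU-domain transcription factor that binds DNA together with SOX2 and is needed for pluripotency. The late ICM normally resolves into EPI, which founds the fetus, and PrE, which founds yolk sac endoderm. EPI cells secrete FGF4 and NODAL-family ligands, while TE, the outer epithelium of the blastocyst, is marked by keratins, tight junctions and factors such as CDX2, GATA3 and EOMES. Lysosomes degrade lipids, glycans and proteins with acid hydrolases, and autophagy delivers cell contents to them.

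Each MUT cell had 907729 to 2112386 counts in genes and each EPI cell 745314 to 3065950. A median of 6514 genes was detected per MUT cell and 6965 per EPI cell. Mitochondrial transcripts took a median of 4.65% of the counts of MUT cells and 3.83% of those of EPI cells, and the part of either difference in the results was not tested. Cells of an embryo are not independent, so their counts were summed and the embryo is the replicate (MUT embryos 3 and 8 with 11 and 8 cells, EPI embryos 1, 2, 4, 5, 6 and 7 with 3 to 8 cells). Levels of MUT and EPI embryos are in CPM, counts scaled to a common library total with trimmed mean of M values (TMM) factors. PrE sums took their factors from a separate fit of MUT, EPI and PrE sums together. The effect of this on comparisons with PrE was not tested. CPM of single cells were scaled to the cell's total counts alone, without TMM factors. The genes of the Y chromosome list summed to 0.0612 CPM in MUT embryo 3 and 87.6 CPM in MUT embryo 8, against 2.78 CPM in EPI embryo 5 and 117 to 177 CPM in the other EPI embryos, so both groups hold embryos with and without Y transcripts.

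Of 12953 genes tested with edgeR's quasi-likelihood test, 298 were called higher and 339 lower in MUT at a Benjamini-Hochberg adjusted p under 0.05, which is 4.92% of tested genes in either direction, 2.30% higher and 2.62% lower. The median log2 fold change over all tested genes was -0.03. In all 298 genes called higher, both MUT embryos lay above all 6 EPI embryos, and in 338 of 339 called lower both lay below them. Over all tested genes such non-overlap was found for 14.4% in the higher and 9.67% in the lower direction. The MUT embryos lay within 2-fold of each other for 232 of the genes called higher (77.9%) and 281 of those called lower (82.9%). Over all tested genes this share was 56.45%. Genes with 0 counts in both MUT embryos, 76 of those called lower, counted as within 2-fold. Leaving out MUT embryo 3 gave 102 and 124 calls, MUT embryo 8 gave 97 and 174, and EPI embryo 7 gave 193 and 214. Among EPI embryos, the 2 WT alone gave 36 and 12 calls and the 4 HET alone 163 and 136. Over the gene lists described next, 153 members were called in all, 21 against the 2 WT and 97 against the 4 HET embryos.

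No transcript of Pou5f1 (chromosome 17, GRCm38, 35506018 to 35510772) was counted in any MUT cell. Both MUT embryos stood at 0 CPM. EPI embryos held 74.8 CPM at the lowest, 141 at the median and 261 at the highest. The groups did not overlap, and, taking 3 counts over all MUT cells as the floor, the level in MUT was at least 1422-fold lower (adjusted p = 0.000317, edgeR). Among EPI embryos the 2 WT stood at 261 and 148 CPM and the 4 HET between 74.8 and 157. Counts of Pou5f1 were present in 0 of 19 MUT, 36 of 37 EPI and 25 of 29 PrE cells. Were the 19 MUT cells independent draws, 0 would allow a share of up to 17.6% (exact Clopper-Pearson 95% bound). They come from 2 embryos, so this bound leaves out the spread between embryos.

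Of the 8 markers of epiblast, Pou5f1, Gdf3, Utf1, Etv5 and Tdgf1 were lower in MUT, and Nanog, Sox2 and Fgf4 were not called. Utf1, a chromatin-bound pluripotency factor, was 18.8 and 5.91 CPM in MUT embryos 3 and 8 against 266, 515 and 716 CPM (lowest, median, highest) in EPI embryos. That is a 41.4-fold lower mean (adjusted p = 0.00130, edgeR), and all 19 MUT cells lay below all 37 EPI cells. Etv5, an ETS-family factor downstream of FGF signalling, was 26.2 and 27.7 CPM in MUT and 272, 307 and 338 CPM in EPI embryos (log2 fold change -3.51 ± 0.24 SE, adjusted p = 6.85e-05). It remained detectable in 8 of 19 MUT cells. The calls on Pou5f1, Gdf3, Utf1 and Etv5 held in each of the 8 fits with 1 embryo left out. That on Tdgf1 held in 2 of them.

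Nanog, which encodes a homeodomain factor of the pluripotency network, was not lost with OCT4. Its level was 679 and 404 CPM in the MUT embryos and 145, 274 and 428 CPM in EPI embryos (log2 fold change 0.87 ± 0.36 SE, adjusted p = 0.220). The embryo sums hide a split among cells. Nanog was at 10 CPM or more in 12 of 19 MUT cells and 36 of 37 EPI cells, and 6 MUT cells lay above every EPI cell while 7 lay below every EPI cell. Weighting cells equally (limma on mean log2 CPM) turned the log2 fold change to -2.02 (adjusted p = 0.0595). Sox2, the DNA-binding partner of OCT4, differed between the MUT embryos, with 0.122 CPM in embryo 3 and 21.6 CPM in embryo 8 against 21.4 to 43.8 CPM in EPI. It was not called (adjusted p = 0.556), but was called when MUT embryo 8 was left out.

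Among the 5 PrE markers, none was called. Gata4, Sox17 and Sox7 were at 0 to 19.8 CPM in MUT embryos and at 77.8 to 384 CPM in PrE sums. Gata6, a PrE determinant, stood at 81.5 and 53.4 CPM in MUT, above all EPI embryos (highest 3.62 CPM) and below all PrE sums (137 to 247 CPM). Its adjusted p against EPI was 0.0869, and it had counts in 14 of 19 MUT and 2 of 37 EPI cells. On a wider list of 32 tested PrE genes Lrp2, Col4a1, Lama1, Aqp8 and Npl were called higher and Apoe and Nid2 lower, of which Col4a1, Lama1 and Apoe were chosen after their values were seen. Its sum, 5668 and 6708 CPM in MUT, lay above the EPI embryos (2917 to 3769 CPM) and below all PrE sums (13828 to 25878 CPM).

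Of the 10 TE markers 6 were called higher in MUT. The cytoskeletal keratins Krt8 and Krt18 reached 1732 and 1376 CPM in MUT embryo 3 and 2445 and 2005 CPM in embryo 8. No EPI embryo exceeded 45.3 CPM of Krt8 or 43.0 CPM of Krt18, and PrE sums reached 435 and 74.9 CPM. Both were called (adjusted p = 0.0247 and 0.00697, edgeR), Krt18 in each of the 8 leave-one-out fits and Krt8 in 4. Gata3, a TE-specifying zinc finger factor, was 247 and 222 CPM in MUT against at most 7.94 CPM in EPI (adjusted p = 0.0376, called in 4 of the 8 fits). Hand1, Eomes and Cldn4 were also called higher. Gata2, at 101 and 68.3 CPM in MUT and at most 10.2 CPM in EPI, and Elf5, at 7.09 and 18.2 CPM in MUT and 0 counts in EPI, lay above all EPI embryos but were not called (adjusted p = 0.161 and 0.0757). Tfap2c overlapped the EPI embryos. Cdx2 was in too few embryos to be tested. It had 0 counts in MUT embryo 3 and in all EPI embryos, and 23.98 CPM in MUT embryo 8, from 4 cells.

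**Figure D1:**
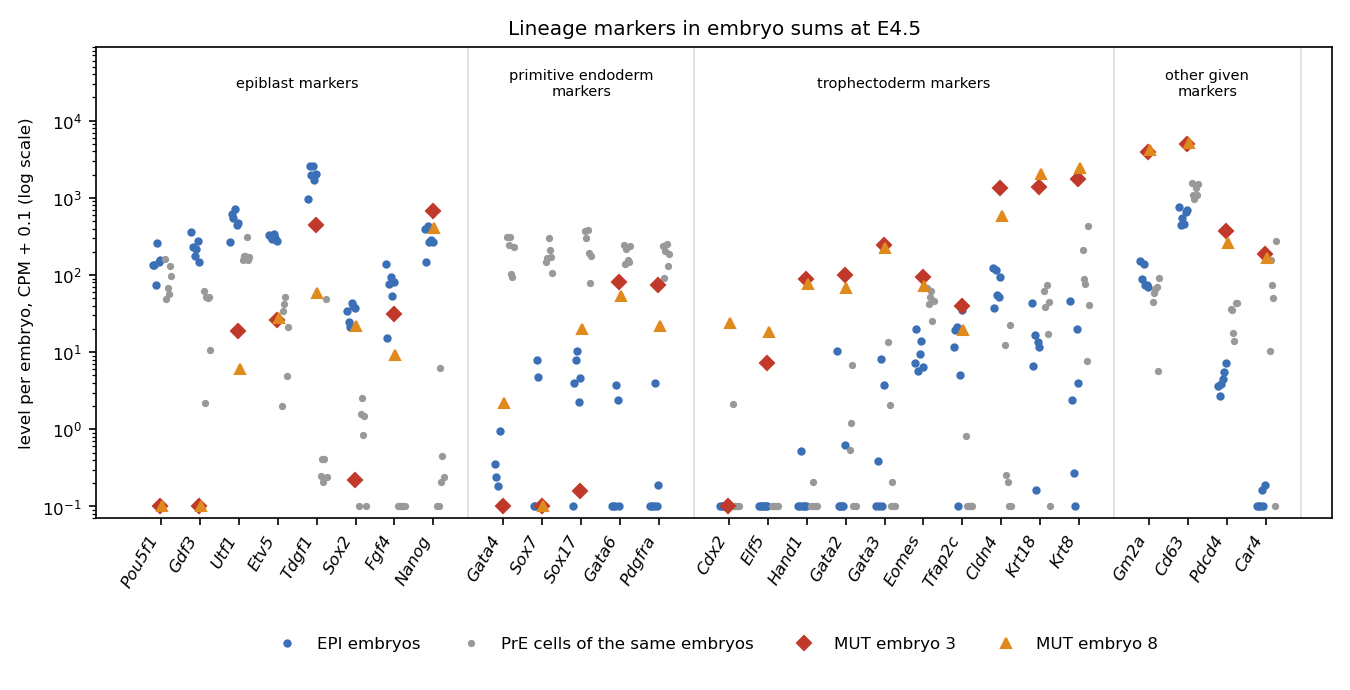
Level of each lineage marker in CPM plus 0.1 on a log scale, with 1 point per embryo for EPI cells, PrE cells of the same embryos and the 2 MUT embryos. Pou5f1 and Gdf3 are at 0 in both MUT embryos, Nanog lies within or above the EPI values, and Krt8 and Krt18 lie above 1000 CPM in both MUT embryos.

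The markers were mixed within cells. At 10 CPM or more, MUT cells held a median of 6 of the 10 TE markers (range 4 to 9), 3 of the 8 epiblast markers (0 to 5) and 1 of the 5 PrE markers (0 to 4). EPI cells held medians of 1, 7 and 0. PrE cells held medians of 2 (0 to 6), 3 (1 to 5) and 5 (4 to 5), so their epiblast median equalled that of MUT cells. Nanog and Krt8 were together at this level in 11 of 19 MUT cells and 5 of 37 EPI cells, and Gata3 with Krt8 in 14 and 0 cells. Nanog with Gata6 was found in 7 MUT cells, 5 of them from embryo 3, and in 2 EPI cells. No MUT cell lacked TE markers. None could carry all 8 epiblast markers, because Pou5f1 is 1 of the 8 and had 0 counts in MUT cells.

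**Figure D2:**
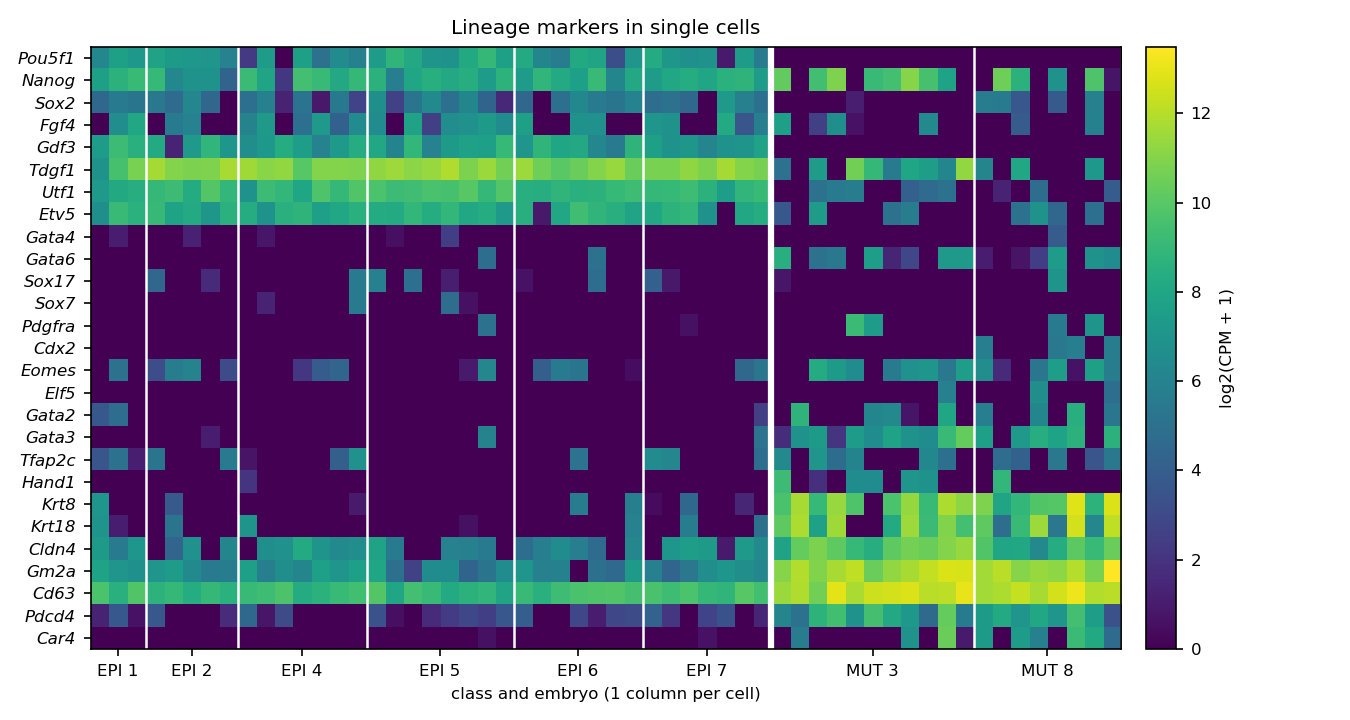
Marker levels as log2(CPM + 1), 1 column per cell, grouped by class and embryo. Most of the 37 EPI columns are bright for Gdf3, Tdgf1, Utf1 and Etv5. All 19 MUT columns are bright for Gm2a and Cd63, 17 of 19 for both Krt8 and Krt18, and 12 of 19 for Nanog.

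The ligands, co-receptor and feedback inhibitors of the NODAL pathway fell in MUT cells, 4 of the 5 to 1 count or fewer. NODAL and GDF3 are TGF-beta family ligands that need the co-receptor CRIPTO (Tdgf1), and LEFTY1 and LEFTY2 inhibit them. Of 20 tested genes of the pathway 5 were called lower and 0 higher (median log2 fold change -0.76), and the 5 are exactly these ligands, co-receptor and inhibitors. With MUT embryo 3 or 8 left out, 3 and 2 were called. None of the receptors, SMAD proteins or convertases on the list was called.

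Gdf3 (chromosome 6, 122605403 to 122610087) had 0 counts in the 19 MUT cells and 13593 in the 37 EPI cells. EPI embryos ranged from 146 CPM through a median of 222 to 356 CPM, so that Gdf3 was at least 2183-fold lower in MUT (adjusted p = 6.85e-05, edgeR). Lefty2 had 1 count in MUT and 18563 in EPI, a pooled ratio of 8366 (exact 95% counting interval 1501 to 330470). Nodal was also at 0 in MUT, and in EPI it was detected in 19 of 37 cells only. Tdgf1 stayed the most abundant of the 5 in MUT. It reached 438 CPM in embryo 3 and 57.8 CPM in embryo 8 against 964, 2009 and 2589.5 CPM in EPI embryos (log2 fold change -2.99 ± 0.72 SE, adjusted p = 0.0449). By cell, the summed level of the pathway was below that of the lowest EPI cell in 17 of 19 MUT cells. Low sums were shared with PrE. The list summed to 794 and 263 CPM in MUT embryos 3 and 8, 2255 to 3674 CPM in EPI and 488 to 1168 CPM in PrE. MUT embryo 3 thus lay within the PrE range and embryo 8 below it.

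Beyond Pou5f1, Utf1 and Etv5, genes called lower among 31 tested pluripotency transcription factors included Hmga1, Etv4, Esrrb, Nr0b1 and Zscan10, with 9 called lower in all and 0 called higher (median log2 fold change -1.34). Hmga1, an architectural chromatin protein, was 2.26 and 4.73 CPM in MUT and 56.7, 97.8 and 156 CPM in EPI embryos (28.3-fold lower mean, adjusted p = 0.00210). It was at 10 CPM or more in 2 of 19 MUT and 37 of 37 EPI cells. Esrrb, Nr0b1 and Zscan10 fall outside the rule for naming and were picked with their values in view. Of the whole list, 7 and 6 members were called without MUT embryo 3 or 8.

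The summed level of this list fell far less than these members, from 3036 to 4315 CPM in EPI to 2620 and 1894 CPM in MUT embryos. PrE sums of the whole list were 1514 to 1974 CPM, a range that held MUT embryo 8 and lay below embryo 3. Nanog, Tfcp2l1 and Klf5 gave 54.3% of the MUT sum. Without these 3 the sums were 1115 and 949 CPM in MUT against 2533 to 3867 CPM in EPI, and 13 of 19 MUT cells lay below the lowest EPI cell. PrE sums without them were 1217 to 1540 CPM, above both MUT embryos.

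Of 35 tested epiblast and naive-state genes 13 were called lower and 3 higher (median log2 fold change -2.02, and 7 and 9 lower without MUT embryo 3 or 8). Spp1, which encodes the secreted adhesion protein osteopontin, was 288 and 366 CPM in MUT and 1143, 2082 and 3514 CPM in EPI embryos (adjusted p = 0.0112). Enox1, a surface NADH oxidase, was at 0 CPM in both MUT embryos and at 41.3 to 147 CPM in EPI, at least 1004-fold lower. The 3 members called higher were Dppa5a, the tetraspanin gene Cd9 and the glucose transporter gene Slc2a3. Dppa5a was chosen after its values were seen. Cd9 stood at 1881 and 1817 CPM against 333 to 559 CPM in EPI (log2 fold change 2.12 ± 0.18 SE, adjusted p = 0.000354), above every EPI cell in 18 of 19 MUT cells.

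Of 44 tested members of the FGF and ERK list 3 were called lower, the ERK-responsive ETS factor genes Etv5, Etv1 and Etv4, and 0 higher (median log2 fold change -0.34). The calls on Etv5 and Etv1 held in each of the 8 leave-one-out fits, and that on Etv4 in 1 (adjusted p up to 0.164). Etv1 had 1 count in MUT cells together. Fgf4 itself, the ligand that EPI cells send to PrE, was 30.8 and 8.95 CPM in MUT against 15.1 to 138 CPM in EPI and was not called (adjusted p = 0.236), with detection in 7 of 19 and 25 of 37 cells. Of 35 tested LIF and STAT3 genes 2 were called in each direction, 5.71% each against 2.30% higher and 2.62% lower over all tested genes. Cish, a STAT-induced cytokine signalling inhibitor, and the kinase gene Pim1 were higher, and Pim2 and Pias2 were lower. Pias2, an inhibitor of activated STAT, was 13.8 and 28.3 CPM in MUT against 174 to 257 CPM in EPI (log2 fold change -3.33, adjusted p = 0.00130), and its call held in each of the 8 leave-one-out fits. Those of Pim1 and Pim2 held in 2 each.

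An epithelial set of genes stood high in MUT cells. Of 15 tested keratin and desmosome genes 5 were called higher and 0 lower (median log2 fold change 3.71). They are Krt8, Krt18, the desmosomal plaque protein gene Dsp, the desmosomal cadherin gene Dsc2 and Perp, which encodes a desmosome-associated membrane protein. Their list summed to 4053 and 5288 CPM in MUT, 247 to 583 CPM in EPI and 269 to 903 CPM in PrE embryos, and 16 of 19 MUT cells exceeded the highest EPI cell. Krt8, Krt18 and Lmna made up 84.9% of the MUT sum. Without them the sums were 751 and 656 CPM against 243 to 499.8 CPM, and 8 of 19 MUT cells exceeded the highest EPI cell. Dsp was 94.5 and 41.2 CPM in MUT embryos and at most 0.255 CPM in EPI and 20.6 CPM in PrE. Counts were found in 13 of 19 MUT cells and, with 1 count, in 1 of 37 EPI cells (adjusted p = 0.00187), and its call was lost without MUT embryo 3. Leaving out MUT embryo 3 or 8, 2 members of the list were called each time.

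Of 29 tested TE transcription factors 6 were called higher (Cited2, Hand1, Klf6, Eomes, Elf3 and Gata3) and 1 lower (Id3), with a median log2 fold change of 3.02. Elf3 was chosen after its values were seen. Cited2, a transcriptional co-regulator, was 226 and 269 CPM in MUT against 5.51, 17.4 and 29.2 CPM in EPI embryos (adjusted p = 0.00391), but lay within the PrE range of 163 to 368 CPM. Klf6 did likewise. Hand1, a basic helix-loop-helix factor of trophoblast, was at 88.7 and 76.3 CPM in MUT and at most 0.424 CPM in EPI and 0.106 CPM in PrE sums. Its counts came from 6 of 11 cells of MUT embryo 3 and 1 of 8 cells of embryo 8. Id3, a BMP-responsive inhibitor of DNA binding, fell from 131 to 399 CPM in EPI to 25.6 and 8.27 CPM in MUT (adjusted p = 0.0103). The list's sum exceeded the highest EPI cell in 17 of 19 MUT cells and the highest PrE cell in 4. Without Klf6, Elf3 and Id2, which gave 59.0% of the MUT sum, these counts were 11 and 10. With MUT embryo 3 or 8 left out, 3 of its genes were called higher each time.

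Of 37 tight and adherens junction genes 3 were called higher and 1 lower (median log2 fold change 1.00). The claudin genes Cldn4 and Cldn7 and F11r, which encodes junctional adhesion molecule A, were the 3. Cldn4 reached 1327 and 586 CPM in MUT, 37.5 to 124 CPM in EPI and at most 22.6 CPM in PrE (12.01-fold higher mean, adjusted p = 0.00187). Jam2 fell, from 128 to 572 CPM in EPI to 14.8 and 28.96 CPM. Of 55 actin cytoskeleton genes 9 were called higher and 0 lower (median 0.97). The focal adhesion gene Zyx and the tropomyosin gene Tpm1 had the smallest adjusted p (0.00299 and 0.00475), and 2 and 3 members were called without MUT embryo 3 or 8.

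Of 29 fluid and ion transport genes 4 were called higher and 3 lower (median log2 fold change 0.83). Car4, a membrane-anchored carbonic anhydrase, was 189 and 164 CPM in MUT embryos and at most 0.0875 CPM in EPI embryos. With 2 counts in all EPI cells, the pooled ratio was 5578 (exact 95% counting interval 1543 to 46073, adjusted p = 5.63e-05). It was seen in 10 of 19 MUT cells and 20 of 29 PrE cells, where its level reached 272 CPM. The water channel genes Aqp8 and Aqp9 were higher as well. Aqp8 stood at 493 and 638 CPM in MUT and 648 to 958 CPM in PrE, whereas Aqp9 had 75.1 and 56.7 CPM in MUT and 0 counts in EPI and PrE cells. Car14 was at 0 in MUT and in PrE sums and at 3.06 to 48.4 CPM in EPI. Of 32 Hippo pathway genes only Ccn1, a matricellular YAP target, was called higher, 3.1% against 2.30% of all tested genes. It stood at 1431 and 1535 CPM in MUT, 39.04 to 301 CPM in EPI and 439 to 1428 CPM in PrE. Of 27 WNT and 23 Notch pathway genes edgeR called 0. At an unadjusted p under 0.05 there were 8 and 7, and DESeq2 on the same sums called 6 and 5 of them.

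Of the gene lists, the lysosomal hydrolases had the most genes called higher. Of 56 tested lysosomal hydrolases and their activators 14 were called higher and 1 lower, 25% and 1.79% of them against 2.30% and 2.62% of all tested genes, with a median log2 fold change of 1.61. When MUT embryo 3 or 8 was dropped, 9 were called higher each time, against the 4 HET embryos alone 11, against the 2 WT embryos alone 2, and against EPI and PrE cells summed per embryo 15. The list summed to 25074 and 24565 CPM in MUT embryos, 2657, 3461 and 4615 CPM in EPI embryos and 6905 to 12864 CPM in PrE. Every one of the 19 MUT cells (14666 to 41219 CPM) exceeded every one of the 37 EPI cells (2231 to 6261 CPM), and 13 exceeded every PrE cell. Psap, Ctsl and Gm2a gave 56.9% of the MUT sum, and without these 3 genes the sums remained 10973 and 10436 CPM against 2191 to 3485 CPM, again with 19 of 19 MUT cells above all EPI cells but 2 of 19 above all PrE cells.

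Among the hydrolases and activators called higher were genes of ganglioside and glycosphingolipid breakdown. Gm2a encodes the activator protein that presents GM2 ganglioside to hexosaminidase A. It stood at 3908 and 4118 CPM in MUT embryos and at 70.1, 81.8 and 153 CPM in EPI embryos. No EPI or PrE sum came near (PrE at most 90.2 CPM), and the mean was 40.2-fold higher in MUT (log2 fold change 5.33 ± 0.30 SE, adjusted p = 3.17e-05). Per length Gm2a ranked 33 of 49326 genes by mean TPM (a length-scaled level) in MUT and 2274 in EPI. Psap, the precursor of the saposins, was 6418 and 5329 CPM in MUT against 94.1, 204 and 335 CPM in EPI (27.99-fold higher mean, adjusted p = 0.000380). Gm2a and Psap exceeded every EPI cell in all 19 MUT cells. Hexa, Glb1, Gla and Neu1, which trim sugars from these lipids (chosen with their values in view), were called higher too, with log2 fold changes of 1.95, 3.33, 3.25 and 2.27.

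Fucosidase and cathepsin genes made up most of the rest. Fuca1, the lysosomal alpha-fucosidase, was 235 and 315 CPM in MUT and 18.3 to 30.3 CPM in EPI (adjusted p = 0.000274). Ctsl, a cysteine protease, was 3776 and 4682 CPM in MUT against 235 to 667 CPM in EPI (adjusted p = 0.000416) but overlapped PrE, at 2054 to 4788 CPM. Npl, on this list and on that of PrE markers, encodes a cytosolic lyase that cleaves free sialic acid. It was 578 and 656 CPM against 10.4 to 109.6 CPM and exceeded every EPI cell in all 19 MUT cells. Its call was lost without MUT embryo 3 or 8 (adjusted p at most 0.0705).

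The lysosomal membrane list had 7 of 55 tested genes called higher and 0 lower (median log2 fold change 0.64). Cd63, a tetraspanin of late endosomes and lysosomes, was 4953 and 5143 CPM in MUT embryos against 446, 603 and 757 CPM in EPI. PrE sums lay between the groups, at 974 to 1571 CPM. The mean was 8.48-fold higher in MUT than in EPI (log2 fold change 3.08 ± 0.20 SE, adjusted p = 5.63e-05), and all 19 MUT cells lay above all EPI cells. Lamp1, a major lysosomal membrane glycoprotein, was 1326 and 1374 CPM against 402 to 509 CPM (adjusted p = 0.000510). Npc2, a carrier of cholesterol out of lysosomes, and Tmem9 were the next by adjusted p. By summed level 19 of 19 MUT cells exceeded all EPI cells, and 11 of 19 without Cd63, Lamp1 and Npc2. Without MUT embryo 3 or 8, 3 and 4 members were called.

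Subunits of the V-ATPase, the proton pump that acidifies lysosomes, were called higher in 5 of 20 cases and lower in 0 (median log2 fold change 0.84). Atp6v0e, a membrane-sector subunit, was 618 and 693 CPM in MUT and 143 to 320 CPM in EPI, with PrE between them at 277 to 460 CPM (log2 fold change 1.59 ± 0.29 SE, adjusted p = 0.0137). Atp6v0a4, a subunit isoform of acid-secreting epithelia, had 0 counts in 37 EPI cells and 126 and 69.99 CPM in MUT embryos, from 14 of 19 cells. It was at least 2048-fold higher (adjusted p = 0.00706). Leaving out MUT embryo 3 or 8, 0 and 1 subunits were called. In the list of mTORC1 and TFEB genes, which hold the kinase complex and the transcription factors that regulate lysosomal genes, edgeR called 0 of 41 (4 at an unadjusted p under 0.05), and DESeq2 called 2.

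Many lysosomal genes share the CLEAR element, a binding site of TFEB-family factors around the letters TCACGTGA. In promoter windows of 250 bases before to 50 after the start (RefSeq, GRCm38.p6), this sequence, which reads the same on both strands, was found in 6 of 30 matched genes called higher on the hydrolase, membrane, V-ATPase and autophagy lists (20.0%). By list these were 3 of 12, 1 of 7, 2 of 5 and 0 of 6. It was found in 215 of 9430 matched tested genes (2.28%) and in 0.974% of 32851 promoters. Among all matched genes called higher it was in 12 of 235 (5.11%), and among those called lower in 3 of 260 (1.15%). The share among uncalled members of the same 4 lists was not taken. Whether 20.0% is particular to the called members was therefore not tested. A match describes letters in a window and does not show a site in use. These are the 250 bases upstream of the 4 of these genes on the hydrolase and membrane lists, shown because they carry the element ahead of the start, with the element in capitals. The V-ATPase gene Atp6v1a also carries it upstream and is not shown. Ctsa has a further annotated start whose upstream window holds none.
Gla, alpha-galactosidase, chrX:134601006-134601255, minus strand: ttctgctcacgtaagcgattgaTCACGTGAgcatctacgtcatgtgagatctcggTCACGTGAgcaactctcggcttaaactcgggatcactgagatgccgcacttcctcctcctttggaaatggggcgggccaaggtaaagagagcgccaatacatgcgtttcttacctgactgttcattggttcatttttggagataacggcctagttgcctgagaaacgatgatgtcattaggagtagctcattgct
Ctsa, protective protein/cathepsin A, chr2:164833523-164833772, plus strand: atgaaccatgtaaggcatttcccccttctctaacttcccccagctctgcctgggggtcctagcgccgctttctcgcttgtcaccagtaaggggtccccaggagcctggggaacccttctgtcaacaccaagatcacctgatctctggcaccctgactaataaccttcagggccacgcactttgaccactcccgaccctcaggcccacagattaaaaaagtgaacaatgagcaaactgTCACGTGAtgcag
Ctsd, cathepsin D, chr7:142387828-142388077, minus strand: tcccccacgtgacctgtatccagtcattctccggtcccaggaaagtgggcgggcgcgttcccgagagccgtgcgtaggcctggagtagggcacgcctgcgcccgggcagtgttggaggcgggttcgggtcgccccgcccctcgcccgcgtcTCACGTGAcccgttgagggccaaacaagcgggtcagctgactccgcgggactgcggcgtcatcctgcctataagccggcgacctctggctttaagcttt
Mfsd1, a lysosomal transporter, chr3:67582518-67582767, plus strand: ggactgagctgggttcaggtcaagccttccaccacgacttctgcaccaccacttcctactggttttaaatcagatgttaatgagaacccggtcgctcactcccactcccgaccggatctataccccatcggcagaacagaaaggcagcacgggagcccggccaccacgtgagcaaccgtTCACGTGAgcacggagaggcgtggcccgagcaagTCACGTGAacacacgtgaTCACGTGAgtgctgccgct
Mfsd1 holds 3 copies and Gla 2. These 4 genes had log2 fold changes of 3.25 (Gla), 2.87 (Ctsa), 1.55 (Ctsd) and 1.44 (Mfsd1), with adjusted p of 0.00118, 0.00374, 0.0268 and 0.0317. They were chosen for the element after the values were seen. The octamer ATGCAAAT, searched on both strands as the site of POU factors, was in 1.92% of matched genes called lower, 2.13% of those called higher and 1.62% of tested genes. For TTCCNGGAA (STAT) the shares among genes called higher and all tested genes were 1.28% and 1.46%, for AGATAAG, the letters of zinc finger factors such as GATA6, 3.83% and 2.29%, for CATTCCA (TEAD) 6.38% and 3.71% and for GCCNNNGGC (AP-2) 32.8% and 28.3%.

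By their summed level, autophagy genes stood higher in each MUT cell than in any EPI cell. Of 49 tested members 7 were called higher and 0 lower (median log2 fold change 0.88). Their sum was 10893 and 13167 CPM in MUT embryos, 3619 to 4584 CPM in EPI and 2908 to 4217 CPM in PrE, and all 19 MUT cells exceeded all 37 EPI and all 29 PrE cells. Without Map1lc3b, Tmem41b and Gabarapl2, which gave 57.2% of the sum, 17 of 19 MUT cells exceeded all EPI cells and 11 all PrE cells. Tmem41b, a lipid scramblase gene of the endoplasmic reticulum needed for autophagosome formation, was 2228 and 3077 CPM in MUT against 123, 147 and 242 CPM in EPI embryos (log2 fold change 4.002 ± 0.27 SE, adjusted p = 6.85e-05). Map1lc3b, which encodes the autophagosome protein LC3B, was 2596 and 2879 CPM against 590 to 1064 CPM (adjusted p = 0.000984). Bnip3, a receptor for mitophagy, was 10.5-fold higher by mean. Members of the ULK1 initiation complex and the ATG5-ATG12 conjugation system were not called. When MUT embryo 3 or 8 was dropped, 4 members were called each time.

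**Figure D3:**
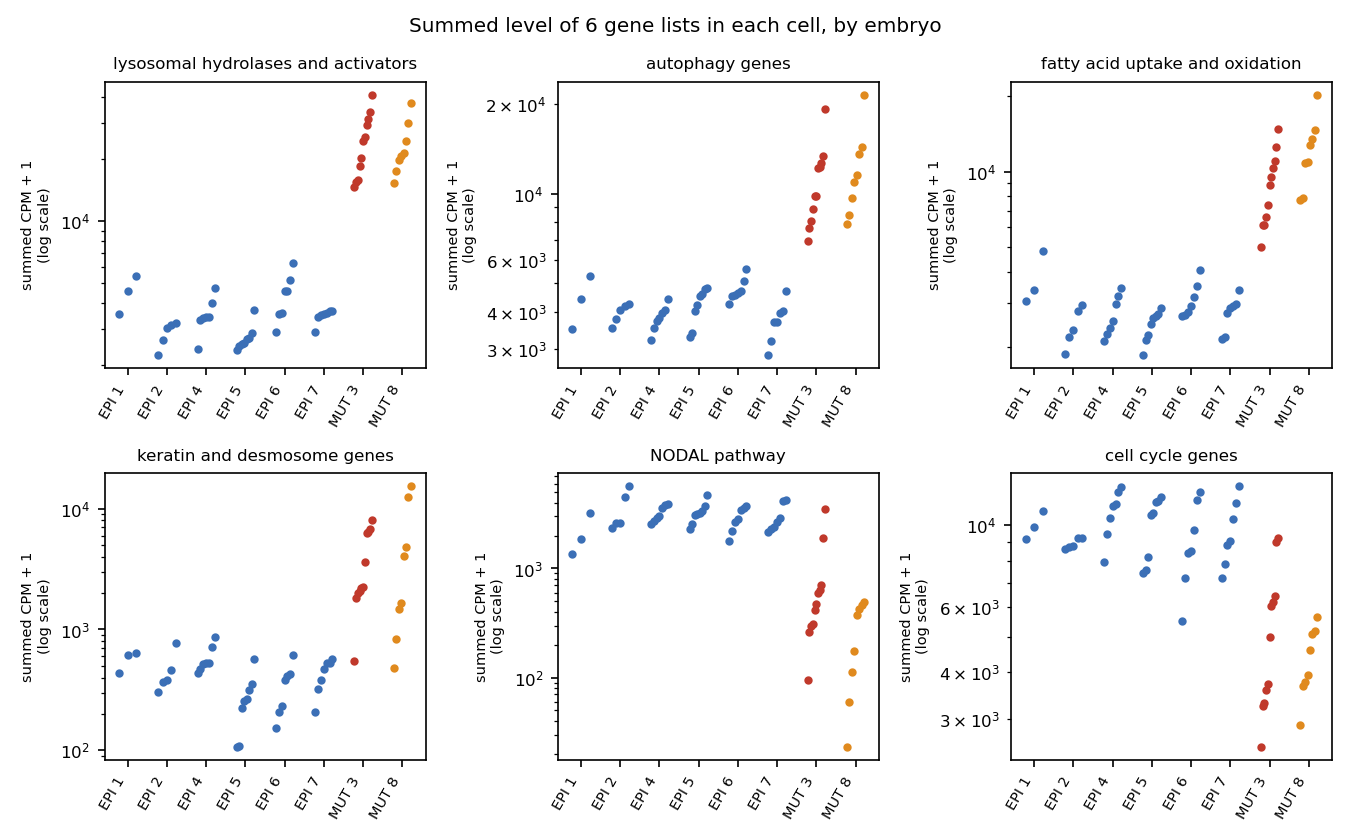
Summed CPM plus 1 of 6 gene lists on a log scale, 1 point per cell, ordered by value within each embryo. All 19 MUT cells lie above all 37 EPI cells for lysosomal hydrolases, autophagy and fatty acid genes, 16 do for keratins, and 17 lie below all EPI cells for the NODAL pathway and 13 for cell cycle genes.

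Of 46 tested genes of fatty acid uptake and oxidation 5 were called higher and 0 lower (median log2 fold change 0.69). Fabp3, a cytoplasmic fatty acid binding protein gene, was 3916 and 4892 CPM in MUT embryos, 58.2, 74.6 and 176 CPM in EPI and 686 to 1385 CPM in PrE. It was 46.5-fold higher than in EPI by mean (adjusted p = 8.00e-05) and above every EPI cell in all 19 MUT cells. Per length it ranked 7 of 49326 genes in MUT by mean TPM. Fabp5 was 1059 and 2751 CPM against 43.9 to 132 CPM, and the lipid droplet coat gene Plin2 was 960 and 872 CPM against 132 to 429.6 CPM. The acyl-CoA dehydrogenase genes Acadvl and Acadl, the latter chosen after its values were seen, were called as well. The sum of the list exceeded every EPI cell in 19 of 19 MUT cells, but in 9 of 19 without Fabp3, Fabp5 and Plin2. Without MUT embryo 3 or 8, 3 and 2 members were called.

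The few called genes of glucose transport and glycolysis went in both directions. Of 39 tested genes 2 were called higher (5.13%), the transporters Slc2a3 and Slc2a1. The enzymes Ldha, Pgam1, Pkm, Pfkp and Eno1 were called lower (12.8%), and 32 genes were not called (median log2 fold change -0.41). Over all tested genes 2.30% were called higher and 2.62% lower. The list summed to 11071 and 10516 CPM in MUT, within the EPI range of 9092 to 15410 CPM. Without Slc2a3, Pkm and Slc2a1 the sums were 5171 and 5564 CPM against 6102 to 11332 CPM in EPI. Slc2a3 was 2875 and 2002 CPM in MUT against 91.6, 204 and 289 CPM in EPI embryos (log2 fold change 3.62 ± 0.33 SE, adjusted p = 0.000458), above every EPI cell in all 19 MUT cells. Slc2a1 was 1166 and 1614 CPM against 227 to 440 CPM (adjusted p = 0.00259). Ldha, lactate dehydrogenase A, fell to 34.6 and 69.0 CPM from 344, 1007 and 1930 CPM in EPI (21.3-fold lower mean, adjusted p = 0.00693), and its PrE sums of 727 to 2654 CPM also lay above MUT. At 10 CPM or more it was present in 4 of 19 MUT and 37 of 37 EPI cells. Pkm, Pfkp and Eno1 were chosen after their values were seen. Leaving out MUT embryo 3 or 8, 1 and 2 enzymes were called lower and both transporters stayed called higher.

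Genes of mitochondrial oxidation were called in small numbers, but nuclear respiratory chain genes summed lower in both MUT embryos than in EPI. Of the TCA list below, 4.65% were called higher and 2.33% lower, against 2.30% and 2.62% of all tested genes. Of 43 genes of pyruvate entry and the tricarboxylic acid (TCA) cycle 2 were called higher, the malic enzyme gene Me1 and the pyruvate dehydrogenase phosphatase gene Pdp2, and 1 lower, the succinate dehydrogenase gene Sdhb (median log2 fold change -0.09). Me1 was 301 and 349 CPM in MUT against 11.2 to 45.6 CPM in EPI (adjusted p = 0.00299). Of 76 nuclear respiratory chain genes 3 were called lower (Sdhb, Ndufv2 and Cycs), which is 3.95% against 2.62% of all tested genes, and 0 higher. All 3 calls were lost with either MUT embryo left out. The nuclear respiratory chain list summed to 22065 and 22576 CPM in MUT, 24667 to 27012 CPM in EPI and 19728 to 23813 CPM in PrE. Both MUT embryos lay below all EPI embryos for 17 of its 76 genes, 22.4% against 9.67% of all tested genes. Of 11 mitochondrially encoded genes edgeR called 0 (2 at an unadjusted p under 0.05, 2 by DESeq2). In cholesterol metabolism 1 of 30 tested genes was called in each direction, 3.33% each. Soat1, which esterifies cholesterol for storage, was called higher at 429 and 499 CPM against 27.5 to 103 CPM. The call on Soat1 held in each of the 8 leave-one-out fits.

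Proliferation and chromatin genes were called in the lower direction only. Of 48 cell cycle genes 9 were called lower and 0 higher, 18.8% against 2.62% of tested genes (median log2 fold change -0.95). The replication genes Mcm3 and Pcna had the smallest adjusted p. Pcna, the replication clamp, was 186 and 214 CPM in MUT and 447, 555 and 773 CPM in EPI embryos (log2 fold change -1.54 ± 0.27 SE, adjusted p = 0.0124). Ccne1 and Ccnb2, cyclins of S phase entry and mitosis, were 8.29-fold and 4.42-fold lower by mean. The list's sum lay below the lowest EPI cell in 13 of 19 MUT cells. The calls in this group leaned on having both MUT embryos. In the same sums both MUT embryos lay below all EPI embryos for 22 of the 48 genes, 45.8% against 9.67% of all tested genes.

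Of 25 DNA methylation genes 5 were called lower and 0 higher (median log2 fold change -0.71). They include Zfp57 and Trim28, which protect imprinted methylation, Uhrf1 and Dnmt1, which copy methylation at replication, and Mbd3. Zfp57 was 12.2 and 9.62 CPM in MUT and 36.9, 129 and 173 CPM in EPI embryos (adjusted p = 0.0132). Trim28 was 426 and 449 CPM against 713 to 1075 CPM. Dnmt1 was chosen after its values were seen. When MUT embryo 3 or 8 was dropped, 1 and 0 were called. Of 24 lysine acetyltransferase genes Naa40 alone was called (lower, adjusted p = 0.00890, edgeR), 4.17% against 2.62% of all tested genes.

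Genes of p53 and apoptosis were called in both directions, 4 higher and 3 lower of 46 (median log2 fold change 0.53). Trp53 itself fell to 35.9 and 55.1 CPM in MUT from 285, 450 and 693 CPM in EPI embryos (9.99-fold lower mean, adjusted p = 0.00174), and 18 of 19 MUT cells lay below every EPI cell. PrE sums were 59.0 to 184 CPM. Pdcd4, which restrains translation initiation and is named for programmed cell death, was 369 and 256 CPM in MUT and 2.57, 4.07 and 7.09 CPM in EPI embryos. All PrE sums (13.7 to 43.5 CPM) lay above EPI and below MUT. The mean was 70.03-fold higher in MUT than in EPI (log2 fold change 6.12 ± 0.39 SE, adjusted p = 5.63e-05). It was at 10 CPM or more in 18 of 19 MUT and 6 of 37 EPI cells. Btg1, an antiproliferative gene, was 358 and 393 CPM against 11.96 to 34.5 CPM (adjusted p = 0.000505). The calls on Trp53, Pdcd4 and Btg1 held in each of the 8 leave-one-out fits.

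No gene of the stress lists was called higher. Since 2.30% of all tested genes were, lists of this size would hold few such calls in any case. Of 42 ATF4 and unfolded protein response genes 4 were called lower and 0 higher (median log2 fold change -0.24). The asparagine synthetase gene Asns was 31.1 and 67.4 CPM in MUT against 192 to 548 CPM in EPI, and the chaperone gene Hsp90b1 254 and 156 CPM against 439.8 to 656 CPM. Of 22 dissociation and heat shock genes 2 were called lower, Hspb1 and Hspe1, and 0 higher. Of 30 amino acid transporter genes 2 were called in each direction, 6.67% each. Slc38a4 rose to 738 and 604 CPM from 40.1 to 87.6 CPM (adjusted p = 0.000458) and Slc6a8 was also higher, while Slc7a7 and Slc1a5 were lower.

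Matrix and adhesion genes were called in both directions. Of 34 integrin and matrix genes 5 were called in each direction. Fn1, fibronectin, fell to 33.3 and 31.9 CPM from 293, 388 and 633 CPM in EPI embryos (log2 fold change -3.69 ± 0.36 SE, adjusted p = 0.000546), with detection in 6 of 19 MUT and 37 of 37 EPI cells. Nid2, a basement membrane linker, was 7.71 and 11.1 CPM against 85.4 to 228 CPM. Sdc4, a heparan sulfate proteoglycan of focal adhesions, rose to 1188 and 1871 CPM from 20.9 to 239.7 CPM (adjusted p = 0.0104). Of 32 tested PrE genes 5 were called higher, among them the endocytic receptor gene Lrp2 and the laminin and collagen genes Lama1 and Col4a1, the last 2 chosen after their values were seen, and 2 lower (median log2 fold change 2.37). The sum of this list was 5668 and 6708 CPM in MUT, 2917 to 3769 CPM in EPI and 13828 to 25878 CPM in PrE, so that MUT lay between the classes. Lrp2 was 415 and 175 CPM in MUT against at most 3.56 CPM in EPI. Of 14 ephrin and Eph receptor genes edgeR called 0 (3 at an unadjusted p under 0.05, 1 by DESeq2).

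**Figure D4:**
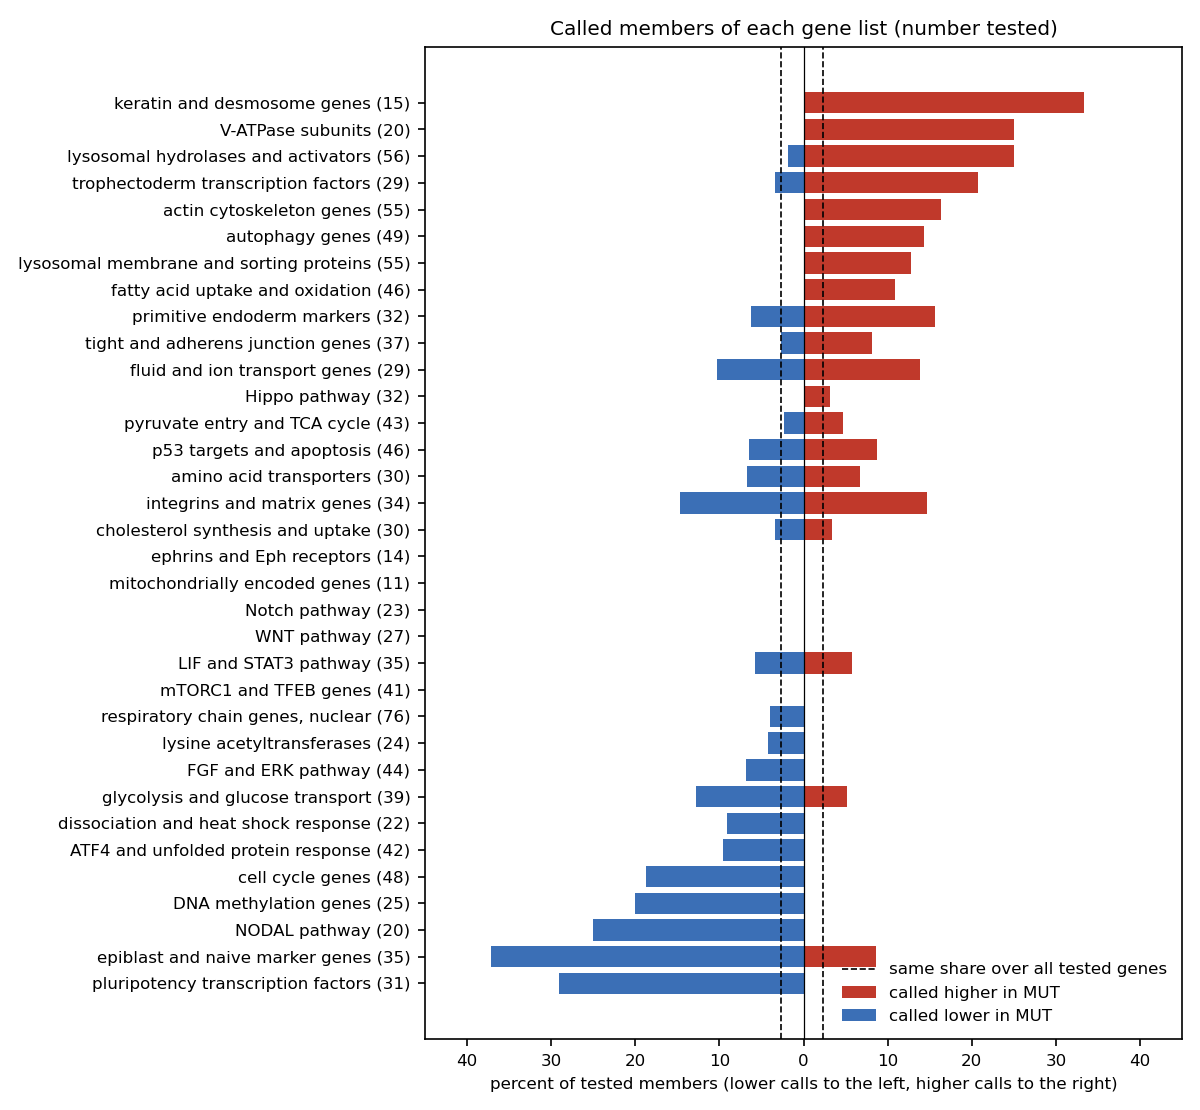
Percent of tested members of each of 34 gene lists called higher (right) or lower (left) in MUT, with the number tested in brackets and dashed lines at the shares over all tested genes, 2.30% and 2.62%. Keratin, V-ATPase, hydrolase and TE factor lists reach 20% or more on the right, and pluripotency, epiblast, NODAL and DNA methylation lists on the left.

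A ranking by log2 fold change puts genes with counts in EPI and few or none in MUT first. The largest decreases were therefore of this kind by construction. Among genes with a mean of 20 CPM or more over the 8 embryos, the 12 largest were Trh, Gdf3, Pou5f1, Ddx58, Enox1, Tuba3a, Ephx2, Cyp2b23, Lefty2, Cobl, Aoah and H2-M5, and all but Lefty2 had 0 counts in MUT. Trh, the precursor of thyrotropin-releasing hormone, was at 221, 865 and 1526 CPM in EPI embryos and in 34 of 37 EPI cells, and at least 8418-fold lower in MUT (adjusted p = 0.000505). Ddx58, the RNA sensor RIG-I, was at 82.2 to 227 CPM in EPI and at least 1135-fold lower. Of the 339 genes called lower, 76 had no count in MUT cells, and the share of such genes over all tested genes was not taken. At the level of cells, 81 of the 339 were below every EPI cell in 10 or more MUT cells, and 5 were so in all 19, namely Gdf3, Utf1, Tubb5, Fam25c and Platr10, the last 3 chosen after their values were seen.

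The largest increases included BC053393, Gm12169, Timd2, Dppa1, Smpdl3a, Atp6v0a4, Fam151a, Capn6, Car4, Igf2 and Aqp8. Igf2, the imprinted growth factor gene, was 88.4 and 103 CPM in MUT with 1 count in EPI. Capn6 differed between the MUT embryos, 158 CPM in embryo 3 and 14.8 CPM in embryo 8, and was not called without embryo 3. Of the 298 genes called higher, 214 (71.8%) had both MUT embryos above all PrE sums as well. The 298 were selected as high in MUT, and no such share over all tested genes was taken, so 214 is a description only. In 133 of the 298, 10 or more MUT cells exceeded every EPI cell. In 10 all 19 did, namely Gm2a, Psap, Ctsa, Npl, Cd63, Slc2a3, Fabp3, Timd2, BC053393 and Syngr1. Ctsa and Syngr1 were chosen after their values were seen.

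Of these 12 increases 4 lie side by side on chromosome 11, an arrangement noticed after the values were seen. In order they are Gm12169 (46524212 to 46538156), BC053393 (46571536 to 46589232), Dppa1 (46607772 to 46629261) and Timd2 (46668960 to 46707061), the last a ferritin receptor of the TIM family. BC053393 had 71719 counts in MUT and 4 in EPI, Timd2 28474 and 4, Dppa1 19933 and 3, and Gm12169 5219 and 0. Timd2 and BC053393 were detected in 19 of 19 MUT cells, Dppa1 in 14 and Gm12169 in 13. In PrE sums Timd2 reached 802 CPM, whereas the other 3 stayed at or below 8.98 CPM. The noncoding gene Gm4926 between Dppa1 and Timd2 was called too (adjusted p = 0.0361). The neighbour Havcr1, which encodes TIM-1, was 369 and 734 CPM in MUT and in 3 of 37 EPI cells, and was not called (adjusted p = 0.126). Reads that align to more than 1 place are in none of the counts, and how many of those come from near-identical copies of these genes was not tested.

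Around Nanog on chromosome 6 neighbours went different ways. Gdf3 was at 0 in MUT, Dppa3 (457 and 238 CPM against 165 to 427 CPM) and Nanog were not called, and Slc2a3, the next annotated gene past Nanog, was called higher. The adjacent keratin genes Krt8 and Krt18 on chromosome 15 both rose, and Lefty1 and Lefty2 on chromosome 1 both fell.

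**Figure D5:**
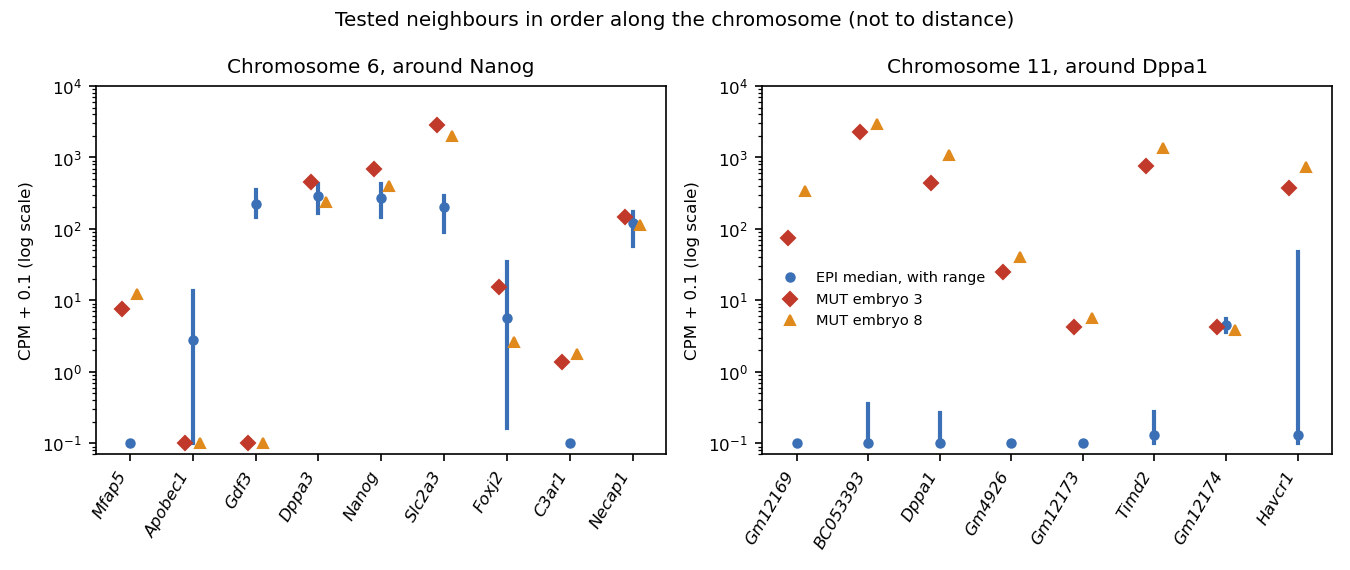
Tested genes in their order along chromosome 6 around Nanog and chromosome 11 around Dppa1, with levels in CPM plus 0.1 on a log scale for the 2 MUT embryos and the median and range of the 6 EPI embryos. Gdf3 is at 0 and Slc2a3 above 2000 CPM in MUT, and on chromosome 11 the genes from Gm12169 to Timd2 are near 0 in EPI.

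In what share of cells a gene was found was compared as the mean share per embryo over 129 named genes. With 2 against 6 embryos the exact two-sided permutation test over 28 divisions cannot give less than p = 0.0714, so no single share could pass the threshold. The smallest value was reached by 70 of the 129 genes (0.132 adjusted over the 129). Most of the 129 were named for non-overlapping levels in these same counts, and no share over all tested genes was taken. The number 70 therefore describes the named genes only. The difference in the share of cells, MUT minus EPI, was -97.6 percentage points for Pou5f1, -100.0 points for Gdf3 and -32.4 points for Nanog, each with exact permutation p = 0.0714. It was 72.3 points for Krt8, 79.7 points for Gata3 and 69.4 points for Gata6, with the same exact permutation p. Genes such as Cd63 and Gm2a had counts almost everywhere (Cd63 in 19 of 19 MUT and 37 of 37 EPI cells, Gm2a in 19 of 19 and 36 of 37), so that the difference lay in level and not in the share of cells. Others, such as Car4 (10 of 19) and Hand1 (7 of 19), were high in part of the MUT cells. Of the 298 genes called higher, 82 were at 10 CPM or more in all 19 MUT cells and 65 in fewer than 10. Thinning each cell to 700000 counts left Pou5f1 in 0 of 19 MUT and 35 of 37 EPI cells, and Krt8 in 18 and 7.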

How the data were processed

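Single cells were profiled with Smart-seq2. The authors aligned paired 125-base reads to GRCm38 with STAR and counted them per gene with HTSeq. The deposited values are raw counts per gene and cell, not normalised. Of the read pairs of the 56 cells 25.1% aligned to more than 1 place, 11.2% lay in more than 1 gene and 4.17% in none, and these entered no total. Of 49671 genes 49326 had a GENCODE M21 symbol. Groups came from the sample labels and embryo numbers from the study's table of cells. Counts were summed per embryo and tested with edgeR 4.0.16 (quasi-likelihood, TMM, filterByExpr, R 4.3.3) with Benjamini-Hochberg adjustment over all tested genes at 0.05. The standard error is the log2 fold change over the root of F. The study tested cells with scde. Alternatives used DESeq2 1.42.0, limma 3.58.1, other filters, other controls and each embryo left out, and the code was tested on simulated data. A gene was detected from 1 count. Intervals of ratios and floors (3 counts over the group) cover counting error only. The bound on the share of MUT cells with Pou5f1 takes cells as independent.

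Named genes were the given and cell type markers, up to 4 called members per list with the smallest adjusted p and both MUT embryos beyond all EPI embryos, and the 12 largest changes in each direction. Members and lists were chosen with earlier results of these data known. All 56 cells were on 1 plate, no 2 cells had identical counts, and embryos are the replicates. Some genes that passed the rule for naming or belong to the lists are not reported here.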

Additional observations from a re-analysis of the deposited data

Results flagged for a closer look

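Of 135 values examined among the 6 EPI embryos (gene list sums, and named genes with a mean of at least 5 CPM), 7 had 1 embryo that stood apart by Dixon's criterion for 6 samples. Chance flags about 1 in 20. EPI embryo 1, with 3 cells, was low for the actin list (8506 CPM), for Pgam1 (154 CPM against 215 to 245 CPM) and for Ccnb2 (128 CPM against 228 to 286 CPM). The sum of the Y chromosome list was 2.78 CPM in EPI embryo 5 and 117 to 177 CPM in the others. Ddx58 was high in the same embryo, at 227 CPM (226.5 before rounding) against 82.2 to 132 CPM. The autophagy gene Map1lc3b was high in EPI embryo 6, at 1064 CPM against 590 to 738 CPM, and Gabarapl2 was low in EPI embryo 4, at 334 CPM against 499 to 572 CPM. The single genes flagged here were named partly because both MUT embryos lay beyond all 6 EPI embryos, so that non-overlap is no check on them. The actin list summed to 14718 and 15147 CPM in MUT, above all EPI embryos (8506 to 11371 CPM). The Y chromosome list overlapped.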

How the results depend on the processing

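No paired analysis was possible because the numbers in the labels count cells, and MUT and EPI cells come from different embryos. Against 298 genes called higher and 339 lower, DESeq2 called 576 and 1138, limma on cells weighted equally 716 and 763, WT EPI embryos alone 36 and 12, HET alone 163 and 136, and EPI and PrE summed as control 602 lower. With 1 embryo left out they ranged from 97 to 333 and from 124 to 441. The 153 list members became 298 with DESeq2, 258 with limma, 21 with WT and 97 with HET alone, and 74 to 176 with 1 embryo left out. Genes with both MUT embryos above all EPI embryos were 1867, 3333 against WT alone and 2024 to 3116 with 1 embryo left out, and those below 1253, 3067 and 1359 to 2138. Fewer embryos make non-overlap easier by construction. For the other changes the cause was not tested. Directions reversed for Nanog under limma (-2.02), and with EPI and PrE as control for Gata4 (-6.73), Gata6 (-0.39), Sox17 (-3.72), Pdgfra (-0.79) and Lrp2 (-0.27), the last of which had been called higher. Sox17 also reversed under limma (-0.36) and without MUT embryo 8 (-6.04), as Gata4 did (-4.39). Without MUT embryo 3 they reached 2.06 and 3.19. The median over all genes moved to -0.20 under limma, -0.12 with no filter, -0.10 with EPI and PrE as control, and -0.24 and -0.31 without MUT embryo 3 or 8. Of 117 named genes called, 55 were called in each of the 8 leave-one-out fits, 45 were lost only without a MUT embryo and 17 without an EPI embryo. Against the 2 WT EPI embryos alone 25 of the 117 stayed called, and against the 4 HET EPI embryos alone 88.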
